A study of Mus musculus with 6 samples.

Results

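The cytochrome P450 genes of families 1 to 3 were followed in livers of HMGB2-KO and WT mice. They are the rows of the deposited table with 1 symbol that begins with Cyp, a 1, 2 or 3, a letter and a digit, which gave 59 of the 22203 probe sets with a gene symbol, 1 probe set per gene in 16 subfamilies. The tested animals were 8-week-old male C57BL/6 mice labelled HMGB2-KO (3 livers), and the controls were WT males of the same age and strain (3 livers). The labels mention no treatment or surgery and do not say how the knockout was made. HMGB2 belongs to the high mobility group proteins, which bind and bend DNA in chromatin.

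P450 enzymes of families 1 to 3 are heme proteins of the endoplasmic reticulum that add oxygen to drugs, pollutants, steroids, retinoids and fatty acids, with electrons passed on by the reductase Por. In liver their genes answer to ligand-bound factors, namely AhR for family 1 and the nuclear receptors CAR and PXR for Cyp2b, several Cyp2c and Cyp3a genes. Many mouse genes of these families also differ between the sexes, under the pattern of growth hormone release that hepatocytes read through STAT5B.

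RNA from each liver was hybridised to 1 Clariom S array. The deposited values are read as log2 and are centred gene by gene, so they compare livers within a gene and carry no level to set 1 gene against another; for the same reason neither the liver identity of the samples nor the detection of a gene could be checked against absolute signal. The array medians were -0.04, -0.05 and -0.05 in HMGB2-KO replicates 1, 2 and 3, against 0.01, 0.26 and -0.04 in WT replicates 1, 2 and 3. WT replicate 2 thus stood apart. The median gene changed by -0.12 (HMGB2-KO minus WT), or by -0.04 without WT replicate 2, and changes relative to the median gene have that amount taken off. Nothing states that the 3 livers of a genotype came from separate mice, so a p-value here reflects only how far these livers spread, and part of that spread may be technical. Hmgb2 itself was lower in each HMGB2-KO liver, at -0.70, -0.38 and -0.48, against 0.48, 0.62 and 0.38 in WT livers, a change of -1.01 ± 0.15 (SE, limma adjusted p 0.469). The labels do not say whether its probes lie in the deleted part.

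A block of Cyp2c genes was lower in HMGB2-KO livers, and the 45 members outside Cyp2c gave no call. Relative to the array medians, the median of the 14 Cyp2c genes stood at 0.06, -0.09 and -0.10 in HMGB2-KO replicates 1, 2 and 3, against 0.30, 0.38 and 0.36 in WT replicates 1, 2 and 3, and these groups did not overlap. With limma, 0 of the 59 members passed an adjusted p of 0.05, where 0% of all probe sets did, and the smallest adjusted p among the members was 0.403. The looser threshold asked for an unadjusted p under 0.05, with no correction for multiple tests, together with a fold of 1.5 or more. By it, 6 members were lower, or 10.2% of them, against 1.6% of all probe sets. At that threshold 0 members were higher, against 0.018% of all probe sets. The 6 were Cyp2c65, Cyp2c67, Cyp2c68, Cyp2c40, Cyp2c69 and Cyp2c54. Of these, Cyp2c67, Cyp2c68, Cyp2c40 and Cyp2c69 are close paralogs whose probes may read more than 1 of them. The counts of members given here may thus hold 1 signal several times. The unadjusted p alone was under 0.05 and lower for 7 members, or 11.9%, against 4.85% of all probe sets, and higher for 0 members, against 0.0721%. In the deposited values, all 3 HMGB2-KO livers lay below all 3 WT livers for 9 members, or 15.3%, against 10.9% of all probe sets. They lay above them for 0, against 0.779%.

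**Figure D1:**
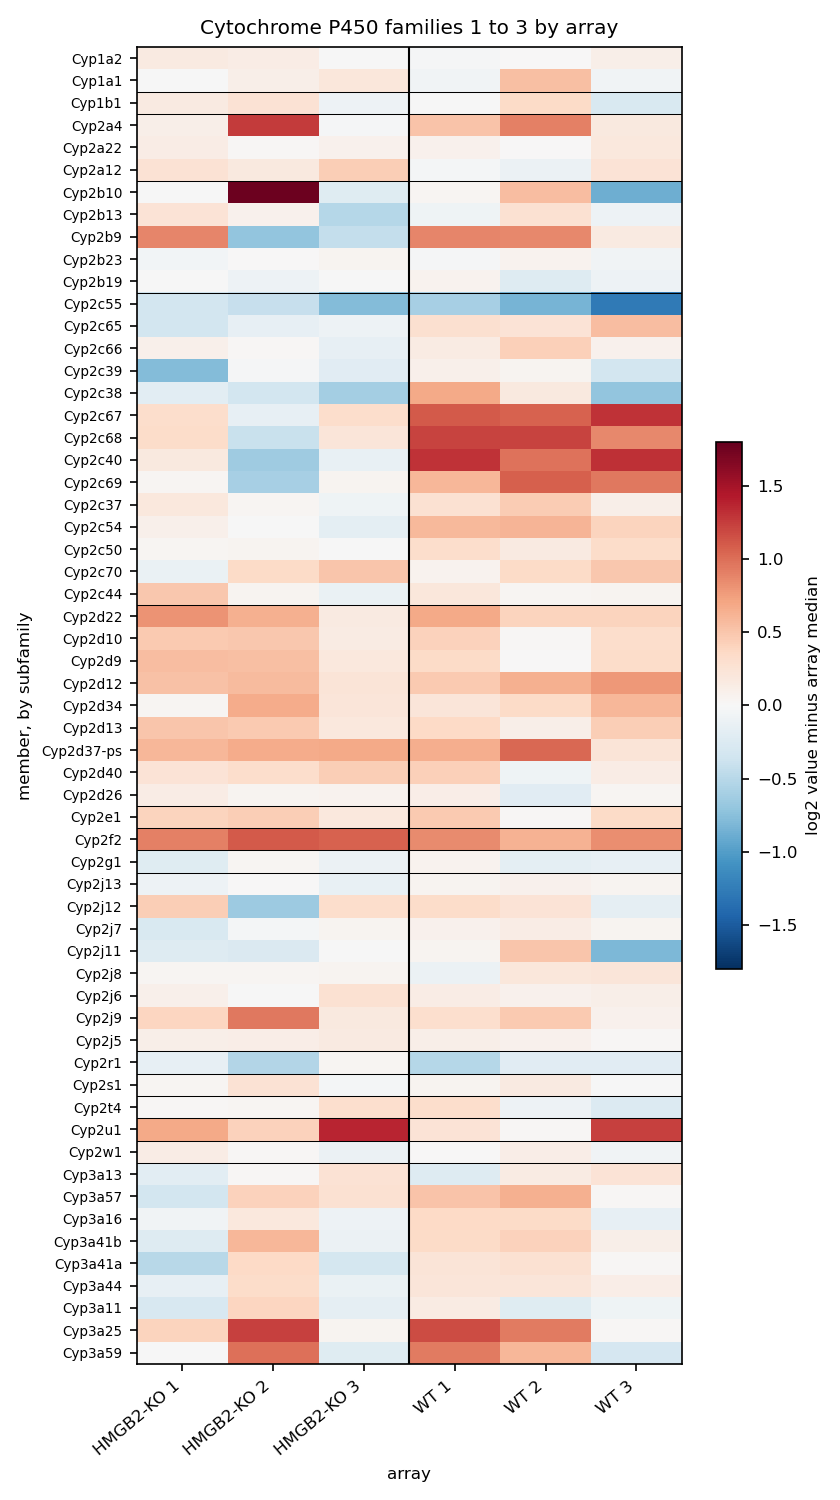
Values of the 59 members (rows, by subfamily and position) in the 6 arrays (columns), as log2 values minus the array's median over all probe sets. The Cyp2c67, Cyp2c68, Cyp2c40 and Cyp2c69 rows are darker red in the 3 WT columns than in the 3 HMGB2-KO columns.

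Cyp2c40 had the lowest change of all members. This enzyme is known in mice for oxidising arachidonic acid. Its deposited values were 0.14, -0.69 and -0.19 in HMGB2-KO replicates 1, 2 and 3, against 1.31, 1.23 and 1.28 in WT replicates 1, 2 and 3. The means were -0.24 ± 0.42 in HMGB2-KO livers and 1.27 ± 0.04 in WT livers (SD, n = 3 each), so the HMGB2-KO livers spread far more. The change was -1.52 ± 0.21 (SE), with a 95% confidence interval of -2.02 to -1.02 and a limma adjusted p of 0.403.

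The 3 genes beside it in chromosome order were also lower in every HMGB2-KO liver than in any WT liver. Cyp2c67 stood at 0.28, -0.20 and 0.27 in HMGB2-KO livers, against 1.12, 1.31 and 1.26 in WT livers, a change of -1.11 ± 0.17 (SE, limma adjusted p 0.537). Cyp2c68 stood at 0.29, -0.45 and 0.17 in HMGB2-KO livers, against 1.23, 1.47 and 0.82 in WT livers, a change of -1.17 ± 0.25 (SE, limma adjusted p 0.852). Cyp2c69 stood at 0.0031, -0.64 and -0.0031 in HMGB2-KO livers, against 0.62, 1.33 and 0.91 in WT livers, a change of -1.17 ± 0.25 (SE, limma adjusted p 0.852). In each of these 4 genes HMGB2-KO replicate 2 was the lowest of the 6 livers, and the lowest WT liver lay above the highest HMGB2-KO liver. All 4 met the looser threshold in each of the 15 alternative settings. Of these settings, the series value table and averaged probe sets leave the change of each member as it was, so they are no separate check. Robust eBayes, the replicate block and the term for livers numbered 3 also leave each change as it was. They can alter only its error and p, so the fold could not fail in them. The genes are close paralogs, and probes that read more than 1 of them would give them shared values. Which of them contributed the signal was not tested.

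The sequence just before these genes is also shared, and is shown here because all 4 genes had HMGB2-KO livers below WT livers with no overlap. RefSeq promoters of build GRCm38.p6 reach from 250 bases before to 50 bases after the annotated start and were matched for 49 members. Capitals mark the motifs CAAAGTCCA, ATTGAT and TATAAA, each searched on both strands, with no overlap between them in these 5 sequences. CAAAGTCCA is known as an HNF4 element, ATTGAT as an HNF6 and CUX2 core, and TATAAA holds the letters of a TATA box. Counted as bases before the annotated start, with negative values after it, TATAAA began at 162 in Cyp2c65, 40 in Cyp2c67, -10 in Cyp2c69 and -40 in Cyp2c40. ATTGAT began at 58 in Cyp2c67, 11 in Cyp2c68, 8 in Cyp2c69 and -22 in Cyp2c40. These places differ between the genes along with the annotated starts, and the letters are given as matches only.
Cyp2c40 promoter, chr19:39812765-39813064, minus strand: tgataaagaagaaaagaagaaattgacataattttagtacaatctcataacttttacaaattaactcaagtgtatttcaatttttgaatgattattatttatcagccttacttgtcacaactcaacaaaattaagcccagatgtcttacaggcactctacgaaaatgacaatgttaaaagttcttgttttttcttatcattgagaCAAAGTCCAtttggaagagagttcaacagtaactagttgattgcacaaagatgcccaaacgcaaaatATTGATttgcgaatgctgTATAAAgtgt
Cyp2c69 promoter, chr19:39886720-39887019, minus strand: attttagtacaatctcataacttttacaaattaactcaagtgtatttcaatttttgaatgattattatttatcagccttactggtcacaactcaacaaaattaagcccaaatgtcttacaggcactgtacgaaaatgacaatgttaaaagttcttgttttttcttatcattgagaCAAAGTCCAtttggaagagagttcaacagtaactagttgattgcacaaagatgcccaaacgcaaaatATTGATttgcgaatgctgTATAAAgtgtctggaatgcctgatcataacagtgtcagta
Cyp2c67 promoter, chr19:39648993-39649292, minus strand: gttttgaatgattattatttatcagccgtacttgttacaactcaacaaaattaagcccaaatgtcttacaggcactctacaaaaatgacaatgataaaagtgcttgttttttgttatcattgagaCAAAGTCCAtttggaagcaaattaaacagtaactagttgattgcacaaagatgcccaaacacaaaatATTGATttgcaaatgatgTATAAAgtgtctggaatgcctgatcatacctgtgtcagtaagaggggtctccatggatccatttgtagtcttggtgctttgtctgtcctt
Cyp2c68 promoter, chr19:39741052-39741351, minus strand: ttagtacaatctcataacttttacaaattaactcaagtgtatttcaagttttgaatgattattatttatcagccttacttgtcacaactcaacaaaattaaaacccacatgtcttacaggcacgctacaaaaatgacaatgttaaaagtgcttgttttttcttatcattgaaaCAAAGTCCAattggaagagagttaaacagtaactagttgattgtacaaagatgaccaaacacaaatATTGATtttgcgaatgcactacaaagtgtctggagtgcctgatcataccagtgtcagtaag
Cyp2c65 promoter, chr19:39060756-39061055, plus strand: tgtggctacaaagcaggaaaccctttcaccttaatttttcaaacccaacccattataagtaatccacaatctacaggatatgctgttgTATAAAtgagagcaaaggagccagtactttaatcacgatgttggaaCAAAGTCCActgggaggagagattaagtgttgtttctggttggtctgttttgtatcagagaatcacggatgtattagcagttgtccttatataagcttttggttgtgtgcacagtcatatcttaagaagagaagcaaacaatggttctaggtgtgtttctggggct

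Aligned without counting overhanging ends, the Cyp2c40 and Cyp2c69 promoters were 98.9% identical over 270 columns. The other pairs among Cyp2c40, Cyp2c67, Cyp2c68 and Cyp2c69 were 90.6% to 93.3% identical. The annotated starts differ, so the same stretch sits further along in Cyp2c40 than in Cyp2c67. Cyp2c65 matched these 4 at 53.1% to 55.2%, while it matched its neighbour Cyp2c66 at 87.4%. Cyp2c66 overlapped between the genotypes, with 0.06, -0.03 and -0.19 in HMGB2-KO livers, against 0.16, 0.68 and 0.03 in WT livers.

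Of the 6 genes that met the looser threshold, 5 have a promoter in the table used, and Cyp2c54 was not matched. Cyp2c44 was not matched either. Cyp2c39, Cyp2j13 and Cyp3a25 each have more than 1 promoter, so counts of promoters are not counts of genes. ATTGAT was present in 4 of the 5, namely Cyp2c40, Cyp2c67, Cyp2c68 and Cyp2c69. It was in 6 of 13 Cyp2c promoters, with Cyp2c37 and Cyp2c50 as the others, in 12 of 52 member promoters (23.1%) and in 7.54% of all 32851 promoters. The members with it outside Cyp2c were Cyp1a2, Cyp3a16, Cyp3a41a, Cyp3a41b, Cyp3a44 and Cyp3a57, all with overlapping groups. TATAAA was in 4 of the 5, in 9 of 13 Cyp2c promoters, in 48.1% of member promoters and in 13.6% of all promoters; Cyp2c68 has none in this window. CAAAGTCCA was chosen after the sequences were seen, so its presence in 5 of the 5 was known beforehand and is no evidence. It was in 6 of 13 Cyp2c promoters, in 10 of 52 member promoters (19.2%) and in 0.475% of all promoters. The members with it beyond the 5 were Cyp2c70, Cyp3a11, Cyp3a16, Cyp3a41a and Cyp3a41b. For each motif, the promoters of Cyp2c40, Cyp2c67, Cyp2c68 and Cyp2c69 are near copies, so their matches are not separate ones. The STAT5 motif TTCNNNGAA was in 0 of 13 Cyp2c promoters, against 8.3% of all promoters. ATCGAT, the other HNF6 and CUX2 core, was in 0 of 13, against 0.925%. The nuclear receptor core AGGTCA and the HNF1 core GTTAAT were in 2 and 3 of 13, against 16.3% and 7.1% of all promoters. The AhR core GCGTG was in 1 of 13, against 32.4%. These matches describe letters in a window and show no binding.

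**Figure D2:**
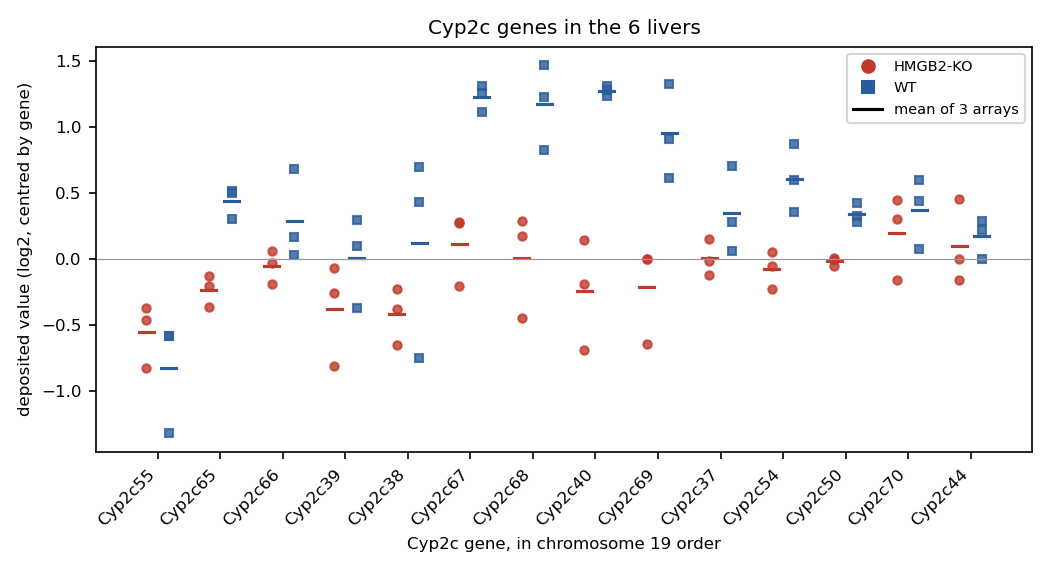
Deposited values (log2, centred by gene) of the 14 Cyp2c genes in chromosome 19 order; circles are HMGB2-KO livers, squares WT livers and bars the means of 3 arrays. The HMGB2-KO circles lie below the WT squares for Cyp2c65, Cyp2c67, Cyp2c68, Cyp2c40, Cyp2c69, Cyp2c54 and Cyp2c50.

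Away from these 4 neighbours, the Cyp2c changes were smaller. Cyp2c65, which is known as a gene of the digestive tract, stood at -0.36, -0.20 and -0.13 in HMGB2-KO livers, against 0.31, 0.50 and 0.52 in WT livers, a change of -0.67 ± 0.14 (SE, limma adjusted p 0.852). Cyp2c54, a hepatic arachidonic acid oxidase, stood at 0.05, -0.05 and -0.22 in HMGB2-KO livers, against 0.60, 0.87 and 0.36 in WT livers, a change of -0.68 ± 0.17 (SE, limma adjusted p 0.852). Neither gene had overlapping groups. Cyp2c54 was 1.60-fold lower as deposited and missed the fold of 1.5 without WT replicate 2, at a change of -0.55. With arrays centred on their medians both missed it, Cyp2c54 at -0.56 and Cyp2c65 at -0.56.

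Cyp2c50, another arachidonic acid oxidase, stood at -0.0064, 0.0064 and -0.05 in HMGB2-KO livers, against 0.33, 0.42 and 0.28 in WT livers. Its change of -0.36 ± 0.13 (SE, limma adjusted p 0.852) was under the fold of 1.5, and its unadjusted p stayed under 0.05 in 8 of 15 alternatives. These 8 include the series value table and averaged probe sets, which leave its change as it was. Robust eBayes, the replicate block and the term for livers numbered 3 are also among them and leave its change as it was. Cyp2c55, an intestinal gene that CAR and PXR induce in liver, lay on the other side, at -0.37, -0.46 and -0.83 in HMGB2-KO livers, against -0.58, -0.58 and -1.32 in WT livers. Its change of 0.28 ± 0.24 (SE) was 0.03 without WT replicate 3, and the groups overlapped. The other 6 Cyp2c members (Cyp2c66, Cyp2c39, Cyp2c38, Cyp2c37, Cyp2c70 and Cyp2c44) ranged from -0.54 to -0.07 with overlapping groups. In all, the change was below that of the median gene for 12 of 14 Cyp2c genes, and their median relative to it was -0.34. A probe set shared by Cyp2c29 and Cyp2c53-ps, which is not a member because it has 2 symbols, changed by 0.06 ± 0.19 (SE).

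**Figure D3:**
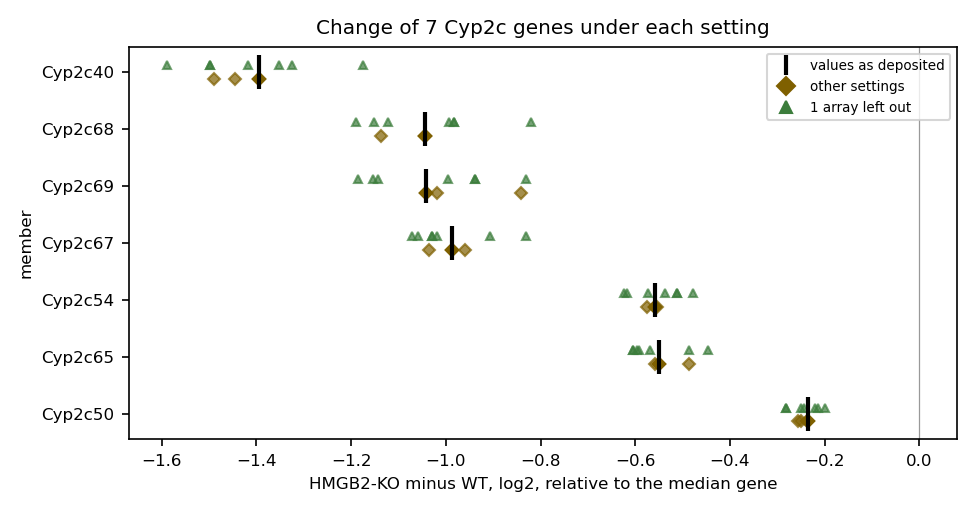
Change (HMGB2-KO minus WT, log2, relative to the median gene) of the 7 Cyp2c genes with an unadjusted p under 0.05; bars give the values as deposited, diamonds the other settings and triangles the fits with 1 array left out. Every point lies below 0, and Cyp2c40 stays between -1.59 and -1.17.

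The 11 members listed as female-biased all had changes below that of the median gene, where by definition 50% of all probe sets lie below it. Their median relative to it was -0.33. Cyp2c40, Cyp2c67, Cyp2c68 and Cyp2c69 were the 4 that met the looser threshold, where 1.6% of all probe sets were lower. These 4 are the close paralogs whose counts may hold 1 signal several times. The other 7 (Cyp2a4, Cyp2b9, Cyp2b13, Cyp3a16, Cyp3a41a, Cyp3a41b and Cyp3a44) ranged from -0.85 to -0.20, with overlapping groups and 0 at an unadjusted p under 0.05. The male-biased members Cyp2d9 and Cyp2u1 lay above the median gene, at 0.21 and 0.33 relative to it, with overlapping groups. The lists were drawn up with results from these arrays known, so their directions are no independent evidence.

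Among the family 1 genes, which AhR induces, no difference between the genotypes was detected. Cyp1a2, the main liver enzyme for caffeine, stood at 0.13, 0.08 and -0.05 in HMGB2-KO livers, against -0.01, 0.27 and 0.06 in WT livers. Cyp1a1, which oxidises polycyclic hydrocarbons, stood at -0.05, 0.06 and 0.16 in HMGB2-KO livers, against -0.05, 0.80 and -0.11 in WT livers, with WT replicate 2 far above the rest. Cyp1a1 changed by -0.16 ± 0.25 (SE), or 0.13 without WT replicate 2. For Cyp1a2 the 95% confidence interval of the change was -0.39 to 0.28. Cyp1b1 overlapped between the genotypes as well, with a change of -0.03 ± 0.24 (SE).

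Of the 5 Cyp2b and 3 Cyp2a genes, 0 had an unadjusted p under 0.05. Cyp2b10, the classic CAR target, stood at -0.04, 1.71 and -0.26 in HMGB2-KO livers, against 0.04, 0.81 and -0.92 in WT livers. The replicates numbered 2 were the highest of each genotype. Its change of 0.49 ± 0.59 (SE) became -0.13 without HMGB2-KO replicate 2. Cyp2b9, a female-biased gene, stood at 0.85, -0.76 and -0.48 in HMGB2-KO livers, against 0.90, 1.12 and 0.12 in WT livers. HMGB2-KO replicate 1 lay among the WT livers, and the change of -0.85 ± 0.44 (SE, limma adjusted p 0.852) was -1.34 without it and -0.53 without HMGB2-KO replicate 2. Cyp2b13, Cyp2b19 and Cyp2b23 ranged from -0.23 to -0.07.

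Of the Cyp2a genes, Cyp2a22 stood at 0.09, -0.03 and 0.03 in HMGB2-KO livers, against 0.10, 0.26 and 0.15 in WT livers. Its groups did not overlap as deposited, but they did relative to the array medians. There Cyp2a22 stood at 0.13, 0.02 and 0.07 in HMGB2-KO livers, against 0.08, 0.01 and 0.19 in WT livers. Its change of -0.14 ± 0.13 (SE) was close to that of the median gene, and was -0.09 without WT replicate 2. Cyp2a4, a steroid hydroxylase, stood at 0.06, 1.22 and -0.06 in HMGB2-KO livers, against 0.53, 1.16 and 0.13 in WT livers, with the replicates numbered 2 again highest. Cyp2a12 changed by 0.14 ± 0.14 (SE). The coumarin hydroxylase gene Cyp2a5 shares a probe set with Cyp2a4, which changed by -0.02 ± 0.37 (SE) and is not a member.

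The Cyp3a genes, the main PXR targets and steroid and drug oxidases, lay slightly low in 2 of the 3 HMGB2-KO livers. Relative to the array medians, their median stood at -0.20, 0.38 and -0.11 in HMGB2-KO replicates 1, 2 and 3, against 0.34, 0.35 and 0.02 in WT replicates 1, 2 and 3. HMGB2-KO replicate 2 was the highest of the 6 livers for 6 of 9 members, and HMGB2-KO replicate 1 the lowest for 5 of 9. The change was below that of the median gene for 8 of 9 members (median -0.16 after subtracting it), and 0 met the looser threshold. That median was -0.04 without HMGB2-KO replicate 1, -0.41 without HMGB2-KO replicate 2, -0.09 without HMGB2-KO replicate 3, -0.08 without WT replicate 2 and -0.33 without WT replicate 3. Cyp3a41a, a female-biased gene, stood at -0.54, 0.31 and -0.36 in HMGB2-KO livers, against 0.25, 0.54 and -0.02 in WT livers. Its change of -0.45 ± 0.25 (SE, limma adjusted p 0.852) was -0.71 without HMGB2-KO replicate 2 and -0.28 without HMGB2-KO replicate 1.

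Cyp3a11, the main mouse counterpart of human CYP3A4, stood at -0.33, 0.34 and -0.21 in HMGB2-KO livers, against 0.16, 0.04 and -0.13 in WT livers. The groups overlapped, and the change of -0.09 ± 0.20 (SE) turned to 0.03 on centred arrays and 0.04 without HMGB2-KO replicate 1. Cyp3a25, picked out after its values were seen for its spread, stood at 0.36, 1.19 and 0.0022 in HMGB2-KO livers, against 1.19, 1.19 and -0.03 in WT livers. The remaining Cyp3a genes ranged from -0.38 for Cyp3a57 to -0.14 for Cyp3a13. The 4 members measured of the CAR and PXR response list (Cyp2b10, Cyp2c37, Cyp2c55 and Cyp3a11, of 6 listed) stood at 0.22 in the median after subtracting the median gene, with 0 at an unadjusted p under 0.05.

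**Figure D4:**
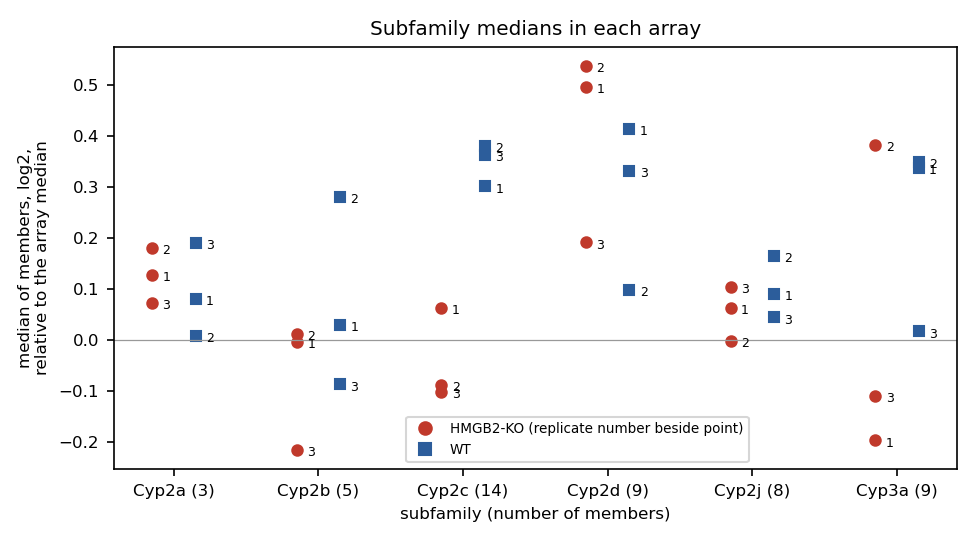
Median of the members of each subfamily with at least 3 members, in log2 units relative to the array median, for each liver; circles are HMGB2-KO, squares WT, and the number beside a point is the replicate. The Cyp2c circles (-0.10 to 0.06) lie below the Cyp2c squares (0.30 to 0.38), while the points of the other 5 subfamilies overlap.

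The Cyp2d genes, debrisoquine-type drug and steroid hydroxylases, lay near or above the median gene. Their median stood at 0.50, 0.54 and 0.19 in HMGB2-KO replicates 1, 2 and 3, relative to the array medians, against 0.42, 0.10 and 0.33 in WT replicates 1, 2 and 3. For 7 of 9 members the change was above that of the median gene (median 0.09 after subtracting it), and 0 met the looser threshold. Cyp2d9, a male-biased steroid hydroxylase, stood at 0.52, 0.49 and 0.15 in HMGB2-KO livers, against 0.36, 0.27 and 0.29 in WT livers, a change of 0.08 ± 0.15 (SE). Cyp2d12 had the smallest p of the subfamily, at 0.48, 0.52 and 0.18 in HMGB2-KO livers, against 0.49, 0.90 and 0.74 in WT livers. Its change was -0.31 ± 0.17 (SE, limma adjusted p 0.852), and HMGB2-KO replicate 2 lay just above WT replicate 1.

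Of the enzymes that mark zones of the liver lobule, Cyp2e1 overlapped between the genotypes. Cyp2e1, the pericentral ethanol-oxidising enzyme, stood at 0.37, 0.40 and 0.14 in HMGB2-KO livers, against 0.49, 0.28 and 0.30 in WT livers, a change of -0.05 ± 0.15 (SE). Cyp2f2, a periportal enzyme that activates naphthalene, stood at 0.87, 1.06 and 1.01 in HMGB2-KO livers, against 0.87, 0.88 and 0.79 in WT livers, a change of 0.13 ± 0.13 (SE). HMGB2-KO replicate 1 lay among the WT livers for Cyp2f2 as deposited. Relative to the array medians, Cyp2f2 stood at 0.91, 1.11 and 1.05 in HMGB2-KO livers, against 0.86, 0.62 and 0.84 in WT livers, with no overlap and a change of 0.25 on centred arrays (limma adjusted p 0.987). The share of all probe sets without overlap on that scale was not computed. Of the 6 measured pericentral members (8 listed), Cyp2c54 and Cyp2c50 had non-overlapping groups, both lower, against 10.9% of all probe sets. Cyp2c54 met the looser threshold, where 1.6% of all probe sets were lower. The middle of the list was -0.09 after subtracting the median gene.

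The Cyp2j genes, epoxygenases of arachidonic acid in several tissues, stood at -0.07 in the median after subtracting the median gene, with 5 of 8 below it and 0 at the looser threshold. Cyp2j7, annotated in RefSeq as a pseudogene, had the smallest p, at -0.31, -0.09 and 0.0018 in HMGB2-KO livers, against 0.09, 0.39 and -0.0005 in WT livers. Its change of -0.29 ± 0.16 (SE, limma adjusted p 0.852) had overlapping groups and was -0.18 without WT replicate 2. Cyp2j13 was the member of this subfamily with non-overlapping groups, at a change of -0.25 ± 0.15 (SE). Of all probe sets, 10.9% were lower with no overlap. Cyp2j5, the abundant kidney and liver form, changed by -0.06 ± 0.15 (SE).

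Among the subfamilies of 1 member, Cyp2r1, a vitamin D 25-hydroxylase, stood at -0.19, -0.58 and -0.02 in HMGB2-KO livers, against -0.50, 0.05 and -0.25 in WT livers, a change of -0.03 ± 0.21 (SE) that was 0.09 on centred arrays. Cyp2u1, a fatty acid hydroxylase picked out here after its values were seen, stood at 0.65, 0.37 and 1.32 in HMGB2-KO livers, against 0.27, 0.27 and 1.19 in WT livers. The livers numbered 3 were the highest of both genotypes, and the change between genotypes was 0.20 ± 0.33 (SE). Cyp2g1, Cyp2s1, Cyp2t4 and Cyp2w1 ranged from -0.13 to 0.0043. Whether such genes with little known liver expression lay above background is not known. The same holds for all other members, those that met the looser threshold included. Over all members, the change relative to the median gene was smaller than the pooled SD within genotypes for 37 of the 45 members outside Cyp2c, and for 4 of the 14 Cyp2c members. The share over all probe sets was not computed, so these counts have no background to be set against.

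**Figure D5:**
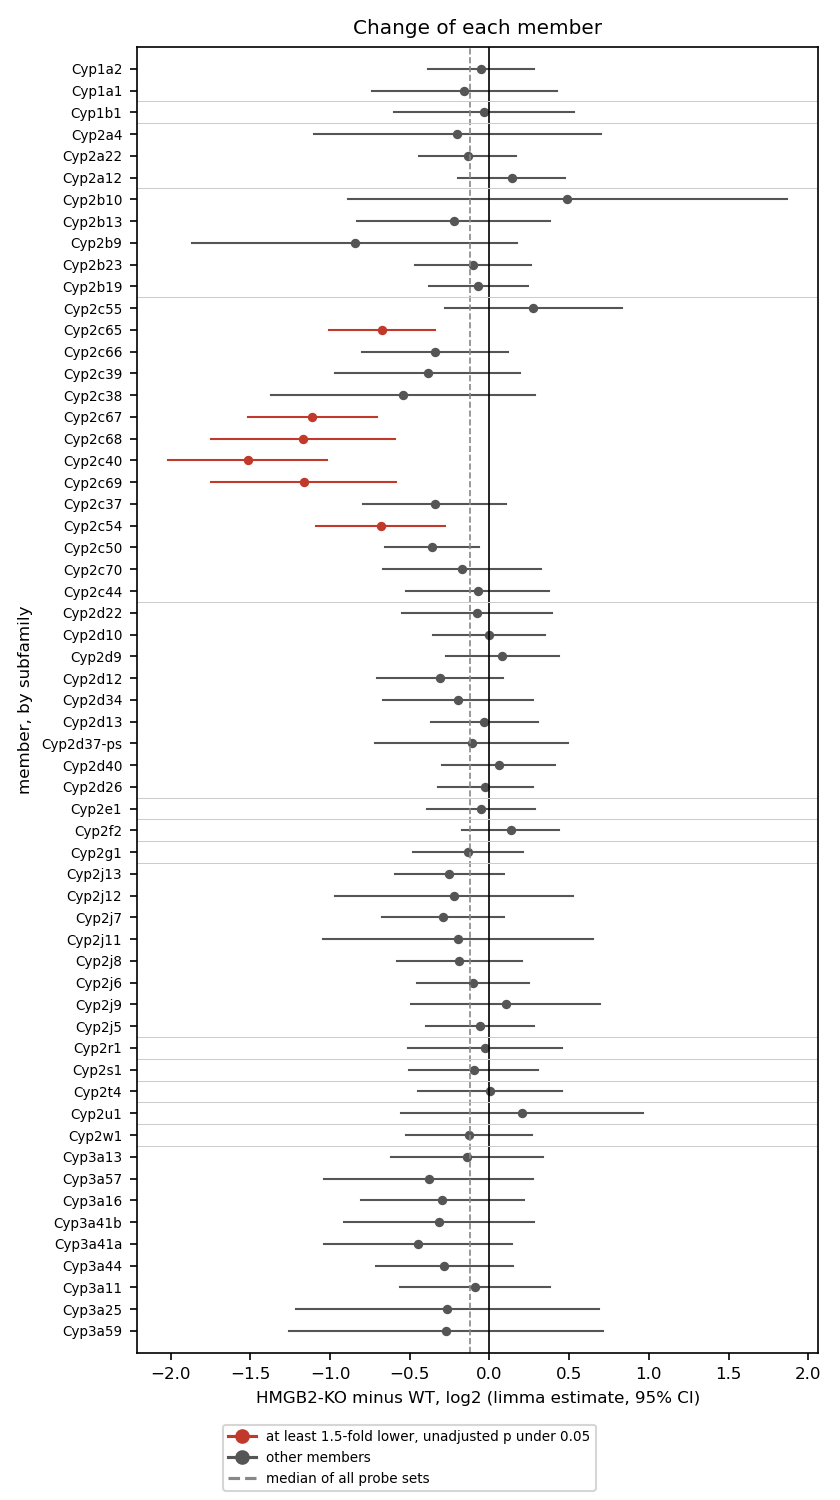
Change of each of the 59 members (HMGB2-KO minus WT, log2, limma estimate as points and 95% confidence intervals as lines), with the median of all probe sets at -0.12 as a dashed line. The 6 red members met the looser threshold, all in Cyp2c, and the widest interval belongs to Cyp2b10.

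The partners and regulators of these enzymes gave no call. Por, the reductase that feeds all microsomal P450 enzymes, stood at -0.96, 0.38 and -2.43 in HMGB2-KO livers, against -0.13, 0.79 and -1.17 in WT livers. The livers numbered 3 were the lowest of both genotypes, and the change of -0.83 ± 0.73 (SE) was smaller than the span within either. Of the 10 electron partner and heme synthesis genes, 0 had an unadjusted p under 0.05, and their median after subtracting the median gene was 0.08. Of the 23 nuclear receptors and other regulators, 0 did, with a median of -0.0050. The PXR gene Nr1i2 changed by -0.47 ± 0.24 (SE, limma adjusted p 0.852) and the CAR gene Nr1i3 by 0.05 ± 0.20 (SE). The growth hormone effectors differed little beside their spread, with Stat5b at 0.06 ± 0.18, Cux2 at -0.05 ± 0.19, Bcl6 at -0.14 ± 0.72 and Onecut1, which encodes HNF6, at -0.46 ± 0.69 (change ± SE).

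In whole liver, fewer cells of a type and less RNA per cell cannot be told apart. Of 6 hepatocyte markers, 0 had an unadjusted p under 0.05, and their median per array, relative to the array median, ran from 0.03 to 0.10 in HMGB2-KO livers and from -0.16 to 0.06 in WT livers. Among 6 cholangiocyte markers Spp1 was higher at that unadjusted level (0.55 ± 0.20 SE, limma adjusted p 0.852), and among 6 sinusoidal endothelial markers Pecam1 (0.43 ± 0.17 SE, limma adjusted p 0.852). Of all probe sets, 0.0721% were higher at it. Other markers of these lists went the other way. The change was below that of the median gene for 3 of 6 cholangiocyte markers, down to -0.42 for Epcam. It was below for 2 of 6 endothelial markers, down to -0.20 for Fcgr2b. The cholangiocyte medians ran from -0.11 to -0.03 in HMGB2-KO livers and from -0.18 to 0.02 in WT livers, and the endothelial medians from 0.69 to 0.92 in HMGB2-KO livers and from 0.64 to 0.84 in WT livers. The Kupffer cell, stellate cell and leukocyte lists, of 6 markers each, had 0 at that level. The part of cell composition in the Cyp2c values was not tested.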

How the data were processed

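Total RNA from 6 livers was hybridised to 1-colour Clariom S mouse arrays with a biotin label, per the labels' protocols. The authors deposited 1 table of 22206 rows, read here as log2 values centred gene by gene; the log base is taken from their range, and for the software, background correction, normalization and build nothing is stated in the sources used here. In 24.2% of the probe sets 2 of the 6 arrays held exactly opposite values (within 2e-06). The series value table held the same numbers. Centring removes absolute brightness, so no filter on dim probes was possible.

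limma 3.58.1 (lmFit, eBayes) in R 4.3.3 was fitted to the deposited values of all 22203 probe sets with a symbol, genotype being the sole term, and p-values were adjusted after Benjamini and Hochberg over all of them (threshold 0.05). The looser threshold was an unadjusted p under 0.05 together with a fold of 1.5 or more. The members and lists were chosen with earlier results of these data known. Values per liver are given for members with an unadjusted p under 0.05, for the smallest p of each subfamily of at least 3, and for 11 landmark genes, of which Cyp2a5 and Cyp2c29 had no probe set of their own; other genes named were chosen after their values were seen. Symbols were matched to RefSeq genes of GRCm38.p6 (58 directly, Cyp2c44 through a synonym), and the assembly was used for names, gene order and promoters. Promoters were aligned with Biopython 1.88. With 3 arrays a genotype, their number sets the precision.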

Additional observations from a re-analysis of the deposited data

How the results depend on the processing

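The 15 alternatives were arrays centred on their medians, quantile normalization, robust eBayes, array weights, a replicate block, a term for livers numbered 3, averaged probe sets, the series value table, each array left out, and centred arrays without WT replicate 2. None gave a member an adjusted p under 0.05 in limma, and the lowest was 0.0752, for Cyp2c40 with array weights. That fit leaned on WT replicate 1, with a weight of 4.67 against 0.29 and 0.58 for WT replicates 2 and 3. It was also the only setting in which any probe set passed, with 6 of all probe sets under 0.05. The count of members lower at the looser threshold was 6, and 5 to 10 with 1 array left out. The 10 came without WT replicate 3, which added Cyp2b9, Cyp2c38, Cyp2j11 and Cyp3a57, while 4.3% of all probe sets were lower. Centring left 4 (0.797% of all probe sets were lower), quantile normalization left 4 (0.779%), and the replicate block gave 7, adding Cyp2b9 (2.13%), against 1.6% as deposited. Cyp2c54 also missed the fold on centred arrays without WT replicate 2 (-0.52). Array weights gave 7, adding Cyp2b9 and Cyp2c38 and losing Cyp2c65, while 2.01% of all probe sets were lower. In their deviations from the genotype means, same-numbered livers correlated at 0.02, 0.13 and 0.27 for numbers 1, 2 and 3. HMGB2-KO replicates 2 and 3 each correlated best with the WT liver of the same number. HMGB2-KO replicate 1 correlated best with WT replicate 2, at 0.11. The numbers in the titles thus went together for some livers only, and the main fit has no term for them.

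Signs turned for members whose change was small beside its error, and the cause was not tested. Cyp1a1 stood at 0.068 with array weights, 0.040 with quantile normalization and 0.16 on centred arrays without WT replicate 2; with 1 array left out it ran from -0.32 to 0.13. Cyp1a2 stood at 0.044 with array weights, 0.064 on centred arrays, 0.082 with quantile normalization and 0.055 on centred arrays without WT replicate 2; with 1 array left out it ran from -0.11 to 0.026. Cyp2b10 ran from -0.13 to 0.91 with 1 array left out. Cyp2e1 stood at 0.064 on centred arrays and 0.062 with quantile normalization, and ran from -0.10 to 0.028 with 1 array left out. Cyp2r1 stood at 0.16 with array weights, 0.090 on centred arrays, 0.11 with quantile normalization and 0.14 on centred arrays without WT replicate 2, and ran from -0.16 to 0.13 with 1 array left out. Cyp3a11 stood at 0.029 on centred arrays and 0.028 with quantile normalization, and ran from -0.29 to 0.041 with 1 array left out.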
